A study of Rattus norvegicus with 28 samples.

Results

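The 50 spots with the strongest signal in rat soleus, of 1185 on a cDNA array, are described here across 4 groups of 7 arrays. They were chosen by their measured level: the plain mean of a spot's share of the array signal over all 28 arrays, with ranks 1 to 50 kept. Their height is therefore a description and was not tested. A spot's signal also depends on the length and labelling of its cDNA, so the ranks order signals and are no order of transcript numbers. The files used here do not pair spots with genes, and the spots are called by their numbers.

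The rats were female, 3 months old, pathogen-free and of the Wistar strain, and the tissue was soleus muscle throughout. Control rats were cage controls, labelled as age controls for 14 days, without treatment. Suspended rats were untreated and had spent 14 days in hindlimb suspension, which takes the load off the muscle. ALCAR control rats were controls given acetyl-L-carnitine (ALCAR), and ALCAR suspended rats were suspended for 14 days and given ALCAR. The dose and route of ALCAR, the time that ALCAR control rats were treated, and whether each array came from its own animal were not stated. If arrays shared animals, the p-values measure only the spread between these samples. The RNA came from pooled sections of whole muscle, so that fewer cells of a type and less RNA per cell cannot be told apart. The design text speaks of 21 samples in 3 groups and leaves out the ALCAR control group, whose 7 arrays are used here as labelled. Untreated rats bear numbers and ALCAR rats letters, so that any difference in handling between these sets cannot be told apart from ALCAR. With no gene names, marker genes of the muscle could not be looked up.

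The soleus is a slow postural muscle that works against gravity, and it loses mass and takes on faster fibre traits when it is unloaded. In skeletal muscle a small set of transcripts, chiefly for contractile proteins and energy metabolism, makes up a large part of the messenger RNA. ALCAR is the acetyl ester of carnitine, the carrier that takes long-chain fatty acids into mitochondria. Which of these proteins any spot here stands for is not known from the files.

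Each value is the part of an array's total signal that fell on the spot, in ppm (the share times 1e6). The lowest value of an array was never near 0: it lay between 146 and 455 ppm, and folds of ppm include this floor. The 50 spots together held 24.3 to 54.2% of the signal of an array, with a median of 41.5%. By group (mean ± SD over 7 arrays) the share was 37.3 ± 6.76% for control, 40.6 ± 6.95% for suspended, 44.1 ± 10.2% for ALCAR control and 40.2 ± 8.27% for ALCAR suspended muscle, and the ranges of all groups overlapped. The arrays with the smallest share, ALCAR suspended H at 24.3% and ALCAR control O at 25.8%, also had the highest floors of all arrays, 455 and 392 ppm. Tests were made on log2 values that had been quantile normalised between arrays. This step gives every array the same set of values, so a spot that is brightest on an array always has the same normalised value there: RG244 was brightest on 14 of 28 arrays and took 9 distinct normalised values. Above all for the first few ranks, a normalised difference is thus a difference of ranks.

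The 50 spots fell into 12 with a mean above 10000 ppm, 13 between 5000 and 10000 ppm and 25 below 5000 ppm. The first, RG244, had a mean of 35789 ppm and the fiftieth, R083, of 1979 ppm, while the median spot of the array was at 429.7 ppm. Between them stood, in order of their mean, R372, R371, R630, R529, R405, RG019, R367, RG148, RG404, RG441 and R281 in the upper tier, RG339, RG077, RG330, R366, RG469, R150, R147, R656, R179, RG329, RG382, RG139 and RG131 in the middle tier, and RG023, RG515, R364, R455, R370, RG138, RG016, RG333, R362, R602, RG147, R301, R282, RG398, RG375, R561, R681, R174, RG169, RG049, RG411, R263, RG464 and RG056 in the lower tier. The brightest spot of an array was RG244 on 6 of 7 control arrays and on 5 of 7 ALCAR control arrays. On suspended arrays 5 spots shared the first place: R371 and RG404 on 2 arrays each and R372, R630 and RG244 on 1 each. On ALCAR suspended arrays it was R372 on 4, RG244 on 2 and R371 on 1. Loaded muscle thus mostly had RG244 first, and unloaded muscle mostly another spot.

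Spots R372, R371, R529 and R405 stayed among the brightest in every group. R372 was at 23729 ± 10325 ppm in the control group, at 34082 ± 7527 ppm in the suspended group, at 27768 ± 8346 ppm in the ALCAR control group and at 39263 ± 18274 ppm in the ALCAR suspended group (SD, n = 7 each, as in all such values below). R371 was at 17799.5 ± 4829, 26792 ± 8659, 24325 ± 2778 and 28024 ± 7563 ppm in the same order. Both means were higher in each suspended group than in its own control group, but neither spot passed the test in any comparison. R529 had group means of 19213, 21748, 20029.7 and 21844 ppm, and R405 of 19040.0, 16946, 19586 and 18001 ppm. Of the 50 spots these 2 had the smallest ratios of the highest to the lowest group mean, 1.14 and 1.16. RG019, at rank 7, lay at 17452, 14486, 22177 and 15757 ppm and was highest in ALCAR control arrays. RG441, at rank 11, had group means of 12716, 10161, 13328 and 15954 ppm. Its spread on suspended arrays, 1496 to 21972 ppm, covered all the group means.

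The order of the 4 group means differed between spots, and 2 orders were common. In 13 spots the control mean was the lowest and the ALCAR suspended mean the highest: R372, R371, R529, R281, R147, R656, RG515, RG016, RG375, R561, R681, R174 and RG464. In 9 spots the suspended mean was the lowest and the ALCAR control mean the highest: RG244, R405, RG019, RG148, RG330, R150, R179, R301 and RG049. Over the 50 spots the control group had the lowest mean in 22 and the ALCAR suspended group the highest in 18. The control group also had the lowest summed share of the 50 spots, 37.3%, so its low means and that sum are not separate results. These orders are of means alone and were not tested. R656, for example, had means of 5241 ± 1849, 6453 ± 1536, 6217 ± 911 and 7162 ± 2271 ppm in the order control, suspended, ALCAR control, ALCAR suspended. R179 had 6448 ± 1651, 5109 ± 1034, 7024 ± 1819.7 and 5258 ± 654 ppm.

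**Figure D1:**
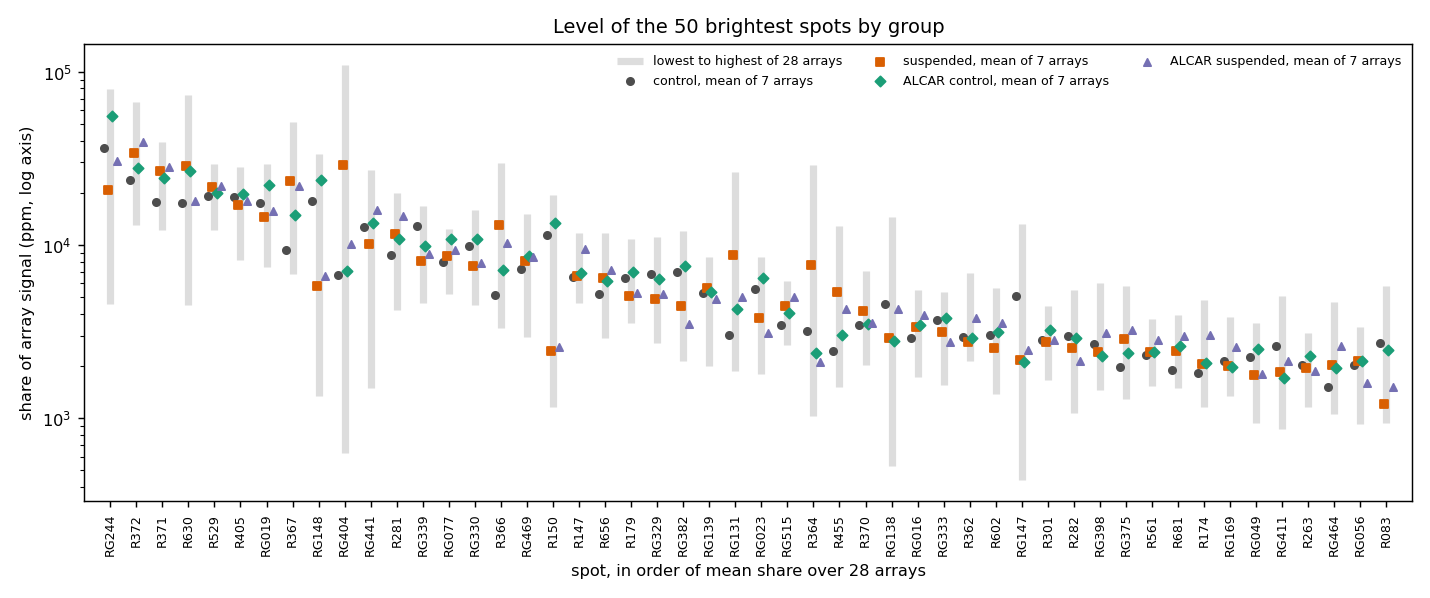
Share of array signal (ppm, log axis) of the 50 brightest spots in order of their mean over 28 arrays. Symbols are the means of the 4 groups of 7 arrays and grey bars run from the lowest to the highest array. R150 and RG148 show the suspended and ALCAR suspended means well below both control means, and the longest bar belongs to RG404, from 627 to 109646 ppm.

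Membership of the upper ranks was steady and that of the lower ranks was not. Of the 50 spots, 22 were among the 50 brightest on all 28 arrays, 39 on at least 20 arrays, and 11 on fewer than 20. Lists of the 50 brightest spots made from the mean of 1 group at a time held 46 of them for control, 46 for suspended, 47 for ALCAR control and 46 for ALCAR suspended muscle. In all, 40 spots were on all 4 lists, 5 on 3 lists and 5 on 2 lists, and no spot owed its place to a single group. RG375, R681, R174 and RG464 were missing from the control list. R083, RG049 and R263 were on both control lists and on neither suspended list. In the suspended and ALCAR suspended groups R083 was at 1216 and 1508 ppm, RG049 at 1785 and 1801 ppm and R263 at 1953 and 1878 ppm. In the control and ALCAR control groups R263 was at 2017 and 2281 ppm, so its suspended mean was close to its control mean. Without suspended 4 and 5 the suspended mean of RG049 was 2099 ppm. Neither RG049 nor R263 passed in any comparison. At the boundary the values were close. The last 5 inside were RG411 at 2081 ppm, R263 at 2032 ppm, RG464 at 2027 ppm, RG056 at 1980.1 ppm and R083 at 1979 ppm. The first 5 outside were RG011 at 1900.0 ppm, R168 at 1898 ppm, R227 at 1835 ppm, RG129 at 1726 ppm and RG416 at 1717 ppm.

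The spots differed widely in how much replicate arrays scattered. The coefficient of variation within groups, taken as the median over the 4 groups, was 15.7% for R561, 18.3% for RG077 and 19.0% for R364, the lowest 3, and 71.9% for RG147, 77.4% for RG404 and 79.4% for RG138, the highest 3. For R364 the median hides the suspended group, where the coefficient was 146%, against 17.1 to 20.5% in the other 3 groups. The median of the 50 spots was 28.5%. The unsubtracted floor makes these values too small, most of all for the dimmer spots. RG138 ranged from 569 to 11277 ppm over the control arrays, from 663 to 5222 ppm over the suspended, from 532 to 5297 ppm over the ALCAR control and from 583 to 14570.0 ppm over the ALCAR suspended arrays. RG147 was high and low on the same arrays, with control 4 at 13182 ppm and control 9 at 438 ppm, where RG138 stood at 11277 and 639.6 ppm. The ranges of all 4 groups overlapped for both spots.

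Suspended arrays 4 and 5 stood apart from the other suspended arrays. On them RG404 was at 109646 and 78754 ppm, against 627 to 4343 ppm on the other 5. R364 was at 29128 and 17658 ppm, against 1036 to 1572 ppm. The high suspended means of both spots, 28822 and 7675 ppm, rested on these arrays: without them the means were 2671 ± 1559 and 1388 ± 217 ppm (SD, n = 5). The same list of 50 spots was obtained from the remaining 26 arrays, with RG404 at rank 19 in place of 10 and R364 at rank 42 in place of 28. The labels do not say what set the 2 arrays apart, and their part in the comparisons below is given by the values without them.

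**Figure D2:**
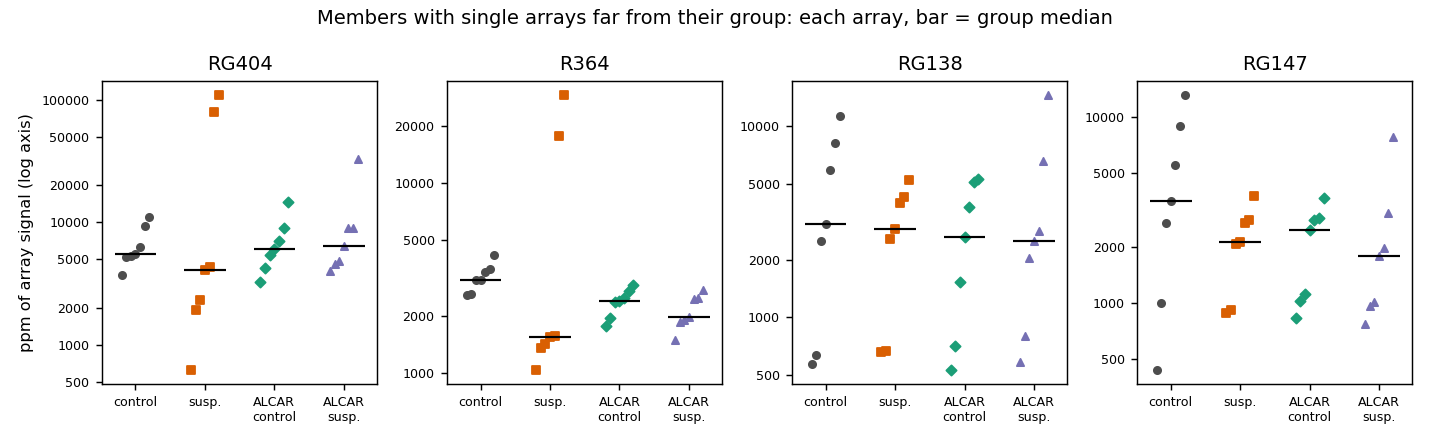
Share of array signal (ppm, log axis) of RG404, R364, RG138 and RG147 on each array, with a bar at the group median. In the suspended group 2 arrays lie far above the other 5 for RG404 and R364, while RG138 and RG147 scatter widely, with their highest arrays in the control and ALCAR suspended groups.

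In untreated rats, 14 days of suspension were compared with cage life. Of the 50 spots, 8 changed at a limma adjusted p under 0.05 over all 1185 spots, where 6.08% of all spots did. R367, R366, RG131 and RG375 rose (4 spots, against 2.62% of all spots called higher). RG148, R150, RG244 and R083 fell (4 spots, against 3.46% called lower). The median difference of the 50 spots was 0.04 on the log2 scale and that of all spots −0.0036. The median size without sign was 0.33 for the 50 spots and 0.08 for all. The pseudocount and the floor shrink the differences of dim spots more than those of bright ones, so these sizes are not on an equal footing.

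Of the 4 spots that fell, R150 was the most clearly apart. It lay at 5729.8 to 19431 ppm (median 11681) on control arrays and at 1165 to 4592 ppm (median 1944) on suspended arrays, and the highest suspended array was below the lowest control array. By the means it was 4.70-fold lower, and the normalised difference was −2.06 (SE 0.27, 95% interval −2.61 to −1.50, limma adjusted p 2.12e-05). RG148 lay at 9914 to 33423 ppm (median 16303) in control and at 1345 to 15626 ppm (median 4351) in suspended muscle. Of its suspended arrays, array 1 at 15626 ppm overlapped with the control arrays and the other 6 were below all of them. RG148 was 3.08-fold lower by the means, with a difference of −1.80 (SE 0.37, 95% interval −2.55 to −1.04, limma adjusted p 0.00253). Its exact permutation p (two-sided, unadjusted) was 0.00117 on normalised values and 0.00291 on log2 ppm. R150 and RG148 passed under each scaling tried.

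RG244, the first spot by mean, lay at 21529.7 to 54692 ppm (median 33334) in control and at 4546 to 40344 ppm (median 20493) in suspended arrays, and the groups overlapped widely. Its mean was 1.74-fold lower in suspended muscle and its normalised difference −1.31 (SE 0.30, 95% interval −1.91 to −0.71, limma adjusted p 0.00642). Its 2 lowest suspended arrays were 4 and 5, at 4546 and 9008 ppm. Over the other 5 its suspended mean was 26471 ppm, and it still passed without those 2 arrays. This call rested on the rank scale: it was lost without normalisation (−1.01, limma adjusted p 0.319), and also when arrays were centred on bright spots (0.443) or on their median (0.205), and on log2 ppm the exact permutation p was 0.0530. R083 lay at 1152 to 5780.1 ppm (median 2222) in control and at 938 to 1334 ppm (median 1279.8) in suspended arrays, where all 7 arrays lay close together. It was 2.23-fold lower by the means, with a difference of −0.84 (SE 0.25, 95% interval −1.34 to −0.33, limma adjusted p 0.0357), and was not past the threshold without normalisation (limma adjusted p 0.0512).

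Among the spots that rose, R366 and R367 have adjoining numbers and moved alike. R367 lay at 6811 to 12201 ppm (median 9445) in control and at 9172 to 51171 ppm (median 21252) in suspended arrays. R366 lay at 3540.4 to 6775 ppm (median 5002) in control and at 4355 to 29817 ppm (median 11808) in suspended arrays. For both spots suspended 6 was the highest and suspended 5 the lowest array of its group, and in ppm R366 overlapped with control through suspended 5 and R367 through suspended 4 and 5. R366 was 2.52-fold higher by the means, with a difference of 1.21 (SE 0.21, 95% interval 0.77 to 1.64, limma adjusted p 0.000597). The exact permutation p of R366 was 0.00117 on normalised values and 0.00874 on log2 ppm. R367 was 2.49-fold higher, with a difference of 1.02. Without normalisation both still passed, with a limma adjusted p of 0.0443 for R366 and 0.0374 for R367. With centring on the array median R367 passed (0.0270) and R366 did not (0.0549).

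RG131 lay at 1962 to 4508 ppm (median 3350.3) in control and at 2858 to 26460.4 ppm (median 6499) in suspended arrays. The highest value, 26460.4 ppm, was that of suspended 6, and suspended 4 and 5 were inside the control range. RG131 was 2.88-fold higher by the means, with a difference of 1.23 (SE 0.28, 95% interval 0.67 to 1.79, limma adjusted p 0.00621). Without suspended 6 its suspended mean was 5771 ppm and the fold 1.90, and it still passed. RG375 rose from 1972 ± 379 to 2850.3 ± 658 ppm, with a difference of 0.54 (SE 0.16, 95% interval 0.21 to 0.87, limma adjusted p 0.0357). Without normalisation neither passed (limma adjusted p 0.0518 for RG131 and 0.348 for RG375), nor when the 14 arrays were fitted alone (0.0674 and 0.104).

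**Figure D3:**
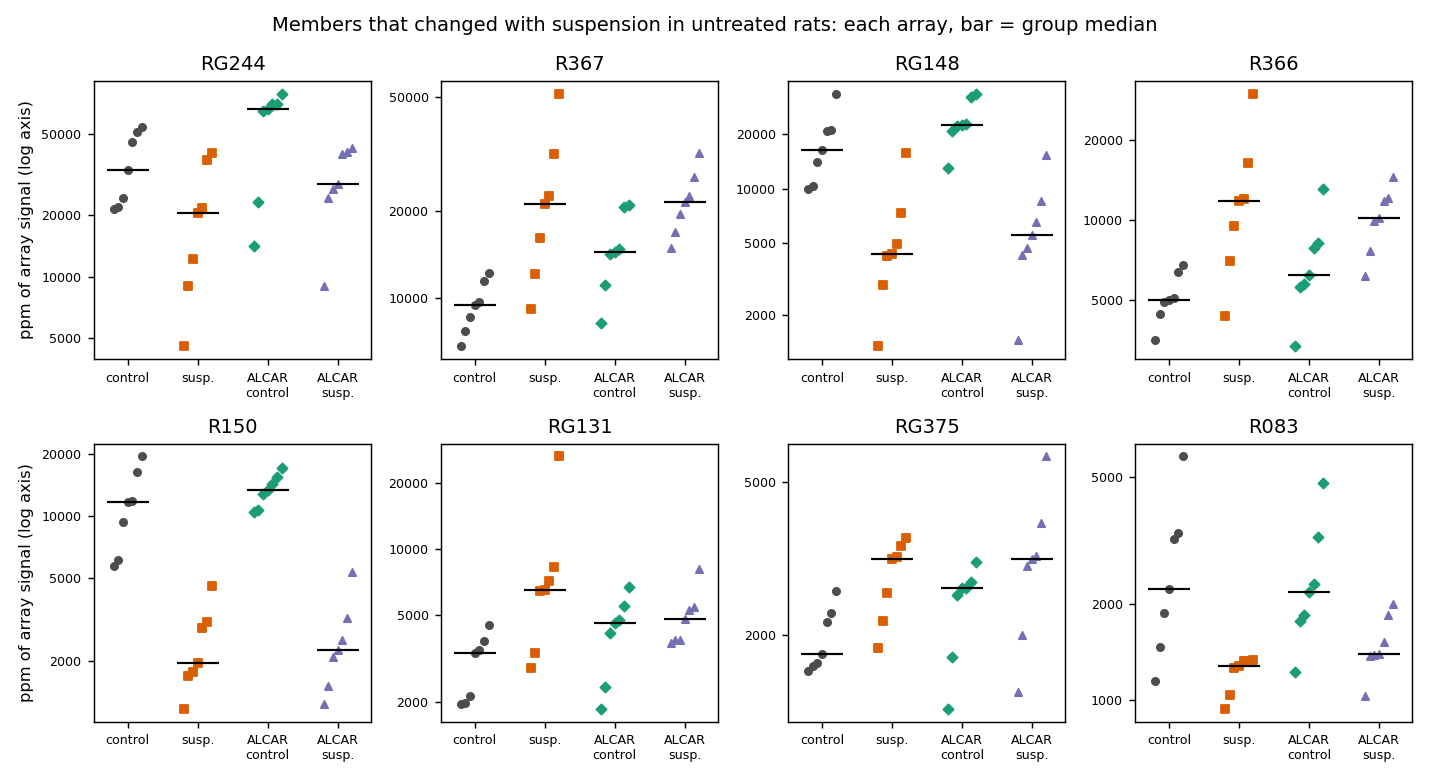
Share of array signal (ppm, log axis) on each array for the 8 spots that changed in suspended against control muscle, with a bar at the group median. R150 shows no overlap between the untreated groups, and the spread of RG244 covers most of its axis in the suspended group.

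Without normalisation 4 of the 8 spots passed (R150, RG148, R366 and R367); with centring on bright spots 6 did and with centring on the array median 3 (1 higher, 2 lower). Without suspended 4 and 5 the count was 9: R364 and R455 came in and R083 dropped out. R364 was then lower, at −1.01 (SE 0.17, 95% interval −1.36 to −0.65, limma adjusted p 0.000336), its 5 other suspended arrays lying below every control array (2563 to 4184 ppm). Suspended 4 and 5 had been singled out by the high values of R364 and RG404 themselves, so this p-value is no fair test of R364. R455 was then higher, at 1.29 (SE 0.22, 95% interval 0.83 to 1.75, limma adjusted p 0.000336), with a mean of 2454 ± 494 ppm in control and of 6787 ± 3502 ppm over the 5 suspended arrays. Suspended 4 and 5, at 1888 and 1523 ppm, were the lowest suspended arrays of R455, which ran against RG404 from array to array. Its p-value without them is therefore no fair test of R455 either. With all arrays R364 was not past the threshold, at 0.11 (95% interval −0.87 to 1.09, limma adjusted p 0.914), and R455 was at 0.82 (95% interval 0.27 to 1.38, limma adjusted p 0.0654).

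The 42 spots that did not pass in suspended against control muscle had differences from −0.81 (RG147) to 0.82 (R455). For 35 of them the 95% interval lay within 1 log2 unit either side of 0, which leaves a 2-fold change of the normalised value outside the interval. The 7 whose intervals went past 1 log2 unit were RG404, RG441, R656, R364, R455, RG138 and RG147. R529 was at −0.18 (95% interval −0.54 to 0.18, limma adjusted p 0.582), RG469 at 0.17 (95% interval −0.33 to 0.67, limma adjusted p 0.724) and RG139 at 0.13 (95% interval −0.27 to 0.54, limma adjusted p 0.727). RG339 and RG330 were lower in suspended muscle by the means, at 12940.1 and 8057 ppm and at 9847 and 7562 ppm, with differences of −0.45 (95% interval −0.83 to −0.07, limma adjusted p 0.143) and −0.30 (95% interval −0.59 to −0.01, limma adjusted p 0.199). R630, at rank 4, lay at 7919.9 to 26239 ppm (median 16378) in control and 4898 to 73702 ppm (median 29514) in suspended arrays, and was at 0.13 (95% interval −0.62 to 0.88, limma adjusted p 0.867).

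Suspension was also compared within the rats given ALCAR, on arrays that share none with the comparison above. Of the 50 spots 7 changed, against 4.05% of all spots. R367, R281 and R147 rose (3 spots, against 1.86% called higher), and RG148, R150, RG382 and RG023 fell (4 spots, against 2.19% called lower). The rises depended on the scaling: the same 4 spots fell and none rose either without normalisation or when arrays were centred on bright spots, and with centring on the array median only R150 and RG148 passed.

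R150 lay at 10462 to 17149 ppm (median 13292) in ALCAR control and at 1235 to 5353 ppm (median 2252) in ALCAR suspended arrays, again with no overlap. It was 5.19-fold lower by the means, with a difference of −2.15. RG148 lay at 13070.1 to 33396 ppm (median 22585) and at 1453 to 15399 ppm (median 5527), and ALCAR suspended R, at 15399 ppm, alone exceeded the lowest ALCAR control array. The difference of RG148 was −2.06 (SE 0.37, 95% interval −2.81 to −1.31, limma adjusted p 0.000711), or 3.59-fold by the means. Both spots thus lost most of their signal in each pair of groups.

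RG382 lay at 4343 to 9360.1 ppm (median 8105) in ALCAR control and at 2183 to 4656 ppm (median 3626) in ALCAR suspended arrays. It was 2.18-fold lower by the means, with a difference of −0.85 (SE 0.20, 95% interval −1.26 to −0.45, limma adjusted p 0.00881). RG023 lay at 3208 to 8481 ppm (median 6933) and at 1802 to 4701 ppm (median 3007), 2.08-fold lower, with a difference of −0.90 (SE 0.21, 95% interval −1.33 to −0.47, limma adjusted p 0.00881). In untreated rats these spots were at −0.58 (95% interval −0.98 to −0.17, limma adjusted p 0.0748) and −0.42 (95% interval −0.84 to 0.01, limma adjusted p 0.233). Their estimates had the same sign there but did not pass. Suspended 4 and 5 were the lowest suspended arrays of both spots, at 2502 and 2135 ppm for RG382 and at 1961 and 1833 ppm for RG023. The other suspended arrays lay at 4042 to 7189 ppm for RG382 and at 3180 to 5970 ppm for RG023. The untreated estimates thus rested in part on suspended 4 and 5.

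R281 lay at 4241 to 14139 ppm (median 12388) in ALCAR control and at 6826 to 19921 ppm (median 15821) in ALCAR suspended arrays, and in ppm the groups overlapped. Its normalised difference was 0.70 (SE 0.16, 95% interval 0.36 to 1.03, limma adjusted p 0.00906), but on log2 ppm the exact permutation p was 0.161. R147 lay at 4655 to 9488 ppm (median 6619) and at 7615 to 11686 ppm (median 9159), with a difference of 0.60 (SE 0.14, 95% interval 0.32 to 0.89, limma adjusted p 0.00881) and an exact permutation p of 0.0117 on log2 ppm. R367 differed by 0.64 and R366 by 0.69 (95% interval 0.25 to 1.13, limma adjusted p 0.0553), which did not pass.

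Set side by side, 35 of the 50 spots had the same sign in both comparisons of suspension (70%), beside 701 of all 1185 spots (59.2%). Of the 50 spots 3 changed in both, R150, RG148 and R367, 5 in untreated rats alone and 4 in ALCAR rats alone. Of all 1185 spots 12 changed in both, 60 in untreated rats alone and 36 in ALCAR rats alone. All 12 spots among the 50 that changed in either had the same sign in both. Signs were not counted over the 108 of all 1185 spots that changed in either. That a spot passed in 1 comparison and not in the other does not show that the effects differ, which the interaction term tests.

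**Figure D4:**
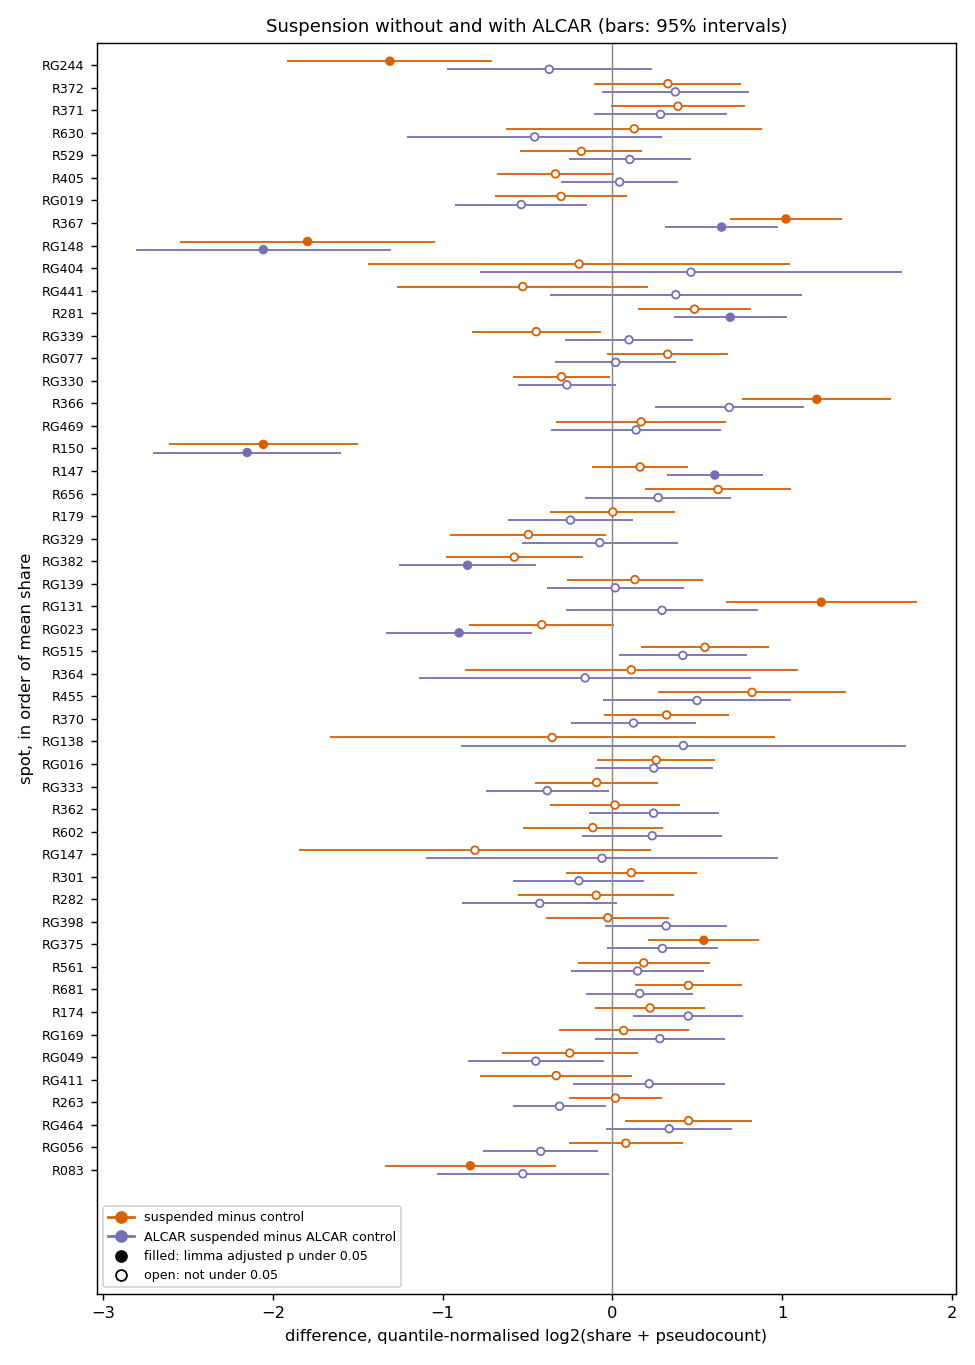
Normalised log2 differences of the 50 spots for suspended minus control and for ALCAR suspended minus ALCAR control, with 95% intervals from limma; filled symbols have an adjusted p under 0.05. R150 and RG148 lie near −2 in both comparisons and R367 lies above 0 in both.

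Against cage controls, ALCAR suspended muscle differed at 13 of the 50 spots, where 12.8% of all spots changed. Rises were found at 9 spots (7.00% of all spots were called higher) and falls at 4 (5.82% called lower). The control arrays are those of the first comparison, so the lists are not independent. R150, RG148, R367, R366 and RG375 changed here as there. Their differences were −1.95 for R150, −1.73 for RG148, 1.09 for R367 and 0.60 for RG375, and R366 went from 5156 ± 1109 to 10306 ± 2826 ppm. RG382 and RG023 fell, by 0.86 and 0.68 on the log2 scale. The other rises were R281, R147, RG515, R681, R174 and RG464. R281 was 1.68-fold higher by the means, with a difference of 0.81 (limma adjusted p 0.00228), and R147 1.45-fold, with 0.56 (limma adjusted p 0.00832). RG515 rose from 3464 ± 323 to 5022 ± 945 ppm, with a difference of 0.60 (limma adjusted p 0.0297). R681 rose from 1900.1 ± 340.1 to 2977 ± 810.3 ppm, a difference of 0.59 with a limma adjusted p of 0.0109. R174 went from 1820.3 ± 444 to 3015 ± 1032 ppm, a difference of 0.62 with a limma adjusted p of 0.00904, and RG464 from 1515 ± 384 to 2614 ± 1056 ppm, a difference of 0.68 with a limma adjusted p of 0.0127. These 3 had the lowest control means of the 50 and were missing from the control list of the 50 brightest.

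Most of these rises depended on the normalisation. Without it and with centring on bright spots 4 of the 13 spots passed, 1 higher (R367) and 3 lower (R150, RG148 and RG382), and with centring on the array median 3 passed, 1 higher and 2 lower. Without control 2 and 4 the count was 8, 4 higher and 4 lower.

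The question what ALCAR did in unloaded muscle gave no call among the 50 spots. Of them 0 passed limma's test, against 1.94% of all spots. An unadjusted p under 0.05 was found in 234 of all 1185 spots and in 6 of the 50. The 6 were R147, RG244, RG441, R602 and R174, with higher estimates in ALCAR suspended muscle, and RG056 with a lower one. R147 lay at 4679.7 to 8489.7 ppm (median 7046) in suspended and at 7615 to 11686 ppm (median 9159) in ALCAR suspended arrays, with a difference of 0.40 (95% interval 0.11 to 0.68, limma adjusted p 0.101). RG244 was at 20844 and 30453 ppm, with a difference of 0.73 (95% interval 0.13 to 1.34, limma adjusted p 0.158). Over the 5 suspended arrays other than 4 and 5 its mean was 26471 ppm. RG441 was at 10161 and 15954 ppm, with 0.81 (95% interval 0.07 to 1.55, limma adjusted p 0.205). Its lowest suspended arrays were 4, 5 and 6, at 5448, 4267 and 1496 ppm. Its other suspended arrays lay at 8842 to 21972 ppm, and its ALCAR suspended arrays at 8663 to 23679 ppm. For the spots that fell most with suspension, the groups had near means: R150 was at 2444 ± 1163 ppm in suspended and 2593 ± 1379.9 ppm in ALCAR suspended muscle, and RG148 at 5829 ± 4693 and 6632 ± 4427 ppm. Their differences were 0.11 (95% interval −0.45 to 0.66, limma adjusted p 0.896) and 0.06 (95% interval −0.69 to 0.81, limma adjusted p 0.949). Changes within these intervals are not excluded with 7 arrays a group. R366 was at 12979 and 10306 ppm, with −0.21 (95% interval −0.65 to 0.23, limma adjusted p 0.664), and RG131 at 8727 and 5008 ppm, with −0.47 (95% interval −1.03 to 0.09, limma adjusted p 0.366). Without suspended 4 and 5, RG404 passed with a difference of 1.69 (SE 0.43, 95% interval 0.80 to 2.57, limma adjusted p 0.0495), its 5 other suspended arrays having been low. Those arrays had been singled out by RG404 itself, while ALCAR suspended I, at 32830 ppm, was kept. That p-value is therefore no fair test of RG404. In 42 of the 50 spots the 95% interval for ALCAR suspended minus suspended lay within 1 log2 unit of 0, and the exceptions were RG244, R630, RG404, RG441, RG131, R364, RG138 and RG147.

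In loaded muscle ALCAR also gave no call among the 50 spots. Of them 0 passed limma's test, against 0.0844% of all spots. An unadjusted p under 0.05 was found in 182 of all 1185 spots and in 3 of the 50: RG339, R681 and R367. RG339 lay at 7609.6 to 16772 ppm (median 12245) in control and at 4656 to 14457 ppm (median 10096) in ALCAR control arrays, with a difference of −0.56 (95% interval −0.94 to −0.18, limma adjusted p 0.153). R681 was at 1900.1 and 2609 ppm, with 0.43 (95% interval 0.11 to 0.75, limma adjusted p 0.180), and R367 at 9415 and 14947 ppm, with 0.44 (95% interval 0.11 to 0.77, limma adjusted p 0.187). RG244 had the highest group mean of all spots in ALCAR control arrays, 55677 ± 25801 ppm against 36183 ± 14369 ppm in control, and 5 of its 7 arrays lay between 65198 and 79296 ppm, above every control array. Its normalised difference was −0.20 (95% interval −0.81 to 0.40, limma adjusted p 0.779). RG244 was already the brightest spot on 6 control arrays, and a rank cannot rise above the first, so the high ppm of those 5 arrays could not show. The estimate was below 0 through ALCAR control G and O, at 23252 and 14131 ppm, where RG244 was not the brightest spot. ALCAR control O lay below every control array. The sign of the estimates over the 50 spots moved with the scaling: 31 were above 0 after quantile normalisation, 39 without it, 41 with centring on bright spots and 44 with centring on the array median. In 44 spots the 95% interval lay within 1 log2 unit of 0, and the exceptions were RG148, RG404, RG131, R364, RG138 and RG147.

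**Figure D5:**
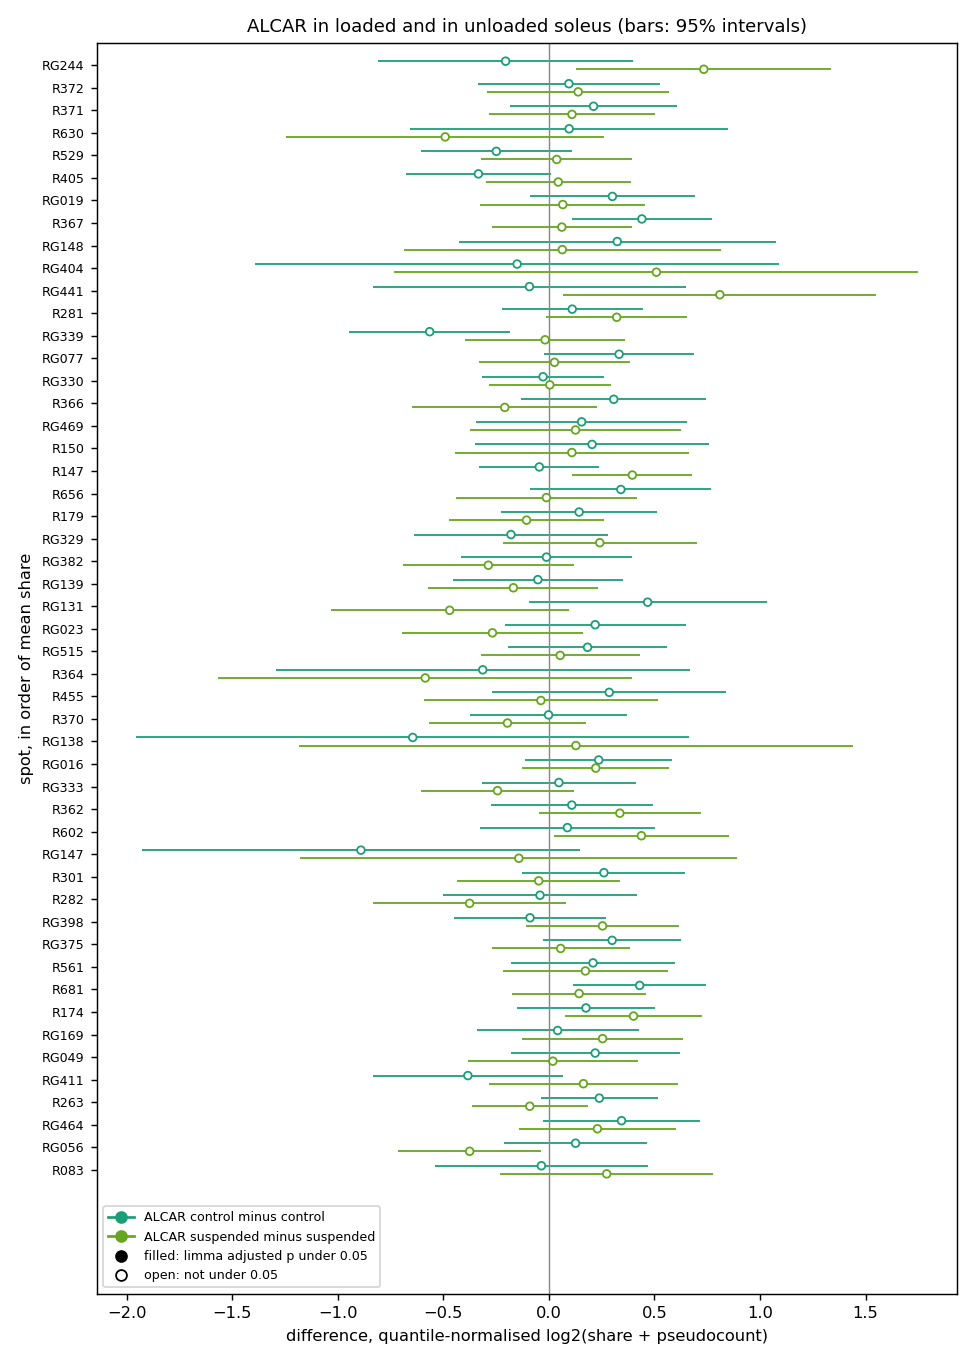
Normalised log2 differences of the 50 spots for ALCAR control minus control and ALCAR suspended minus suspended, with 95% intervals from limma. All symbols are open, since no spot had an adjusted p under 0.05, and the widest intervals belong to RG138, RG404, RG147 and R364.

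An interaction term, fitted over all 28 arrays, compared suspension with ALCAR to suspension without it. Of the 50 spots 0 passed limma's test, as 0% of all spots did. An unadjusted p under 0.05 was found in 169 of all 1185 spots and in 5 of the 50. RG131, which rose in untreated rats and was at 4278 and 5008 ppm in the ALCAR groups, had an interaction of −0.94 (95% interval −1.74 to −0.14, limma adjusted p 0.260). RG244 had 0.94 (95% interval 0.08 to 1.79, limma adjusted p 0.281), R147 0.44 (95% interval 0.04 to 0.84, limma adjusted p 0.282), RG339 0.55 (95% interval 0.01 to 1.08, limma adjusted p 0.334) and RG056 −0.50 (95% interval −0.98 to −0.02, limma adjusted p 0.316). For the spots that changed in both comparisons of suspension the interaction was −0.10 (95% interval −0.88 to 0.69, limma adjusted p 0.912) for R150, −0.26 (95% interval −1.32 to 0.80, limma adjusted p 0.846) for RG148 and −0.38 (95% interval −0.85 to 0.09, limma adjusted p 0.466) for R367.

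The numbers of the 50 spots were set against the array's list as a description, with no test. Of 702 spots whose numbers begin with R, 24 were among the 50 (3.42%), and of 483 that begin with RG, 26 were (5.38%). The numbers R362 to R372, a run picked after the values were seen, held 7 of the 50 among 11 numbers: R362, R364, R366, R367, R370, R371 and R372. Together these 7 held 9.24% of the array signal on average. In suspended against control muscle R366 and R367 rose. R362, R364, R370, R371 and R372 had differences of 0.02, 0.11, 0.32, 0.39 and 0.33 and did not pass, although R364 did when suspended 4 and 5 were left out, and differences between these spots were not tested. Whether adjoining numbers are adjoining positions on the array was not stated.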

How the data were processed

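Total RNA of soleus (3 µg) was reverse-transcribed with the Atlas Rat 1.2 primers and P32 label, per the labels. The deposited values are hybridisation intensity, given by the authors as a share of each array: every array sums to 1. How images were quantified and whether background was subtracted is not given in the sources used here. No design text or label names a batch.

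Shares were turned into log2(share + pseudocount), with the lower quartile of all values (335 ppm) as pseudocount, and quantile normalised. limma 3.58.1 in R 4.3.3 was fitted over 28 arrays and 1185 spots with 1 mean per group (eBayes with trend). Tests were two-sided, with Benjamini-Hochberg adjustment over all spots, and changed means an adjusted p under 0.05. Exact permutation tests compared 7 with 7 arrays and are unadjusted; 0.000583 is the smallest p they can give. Spots had been picked by limma on the same arrays, so these p-values add no separate evidence. The fit was tested on simulated data. With changes in bright spots it kept the false calls near the set rate. With changes put on dim spots too, quantile normalisation gave clearly more false calls than that rate and understated the changes. The bright-spot setting was added after that result was seen. Simulated noise was independent between spots and held no differing floors or arrays that stood apart, so the rate of false calls in these data is not known from it. The number of arrays limits the precision.

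The 50 spots, lists and rules were chosen with earlier results of these data known. Named are ranks 1 to 12, all spots that changed, ranks 46 to 55, the 3 highest and 3 lowest coefficients of variation, and any spot on the list of 1 group alone (there were 0). Spots outside this rule, such as R455, R602, RG339 and the run from R362 to R372, were named after their values were seen. The 1185 spot numbers matched 0 entries of the gene table, so no gene list or marker list was tested and no sequence is shown. The control and suspended rats share 5 numbers, but 1 of 5 same-numbered pairs correlated above 0.1, so the numbers were not taken as pairs. Alternatives covered pseudocount, scaling, a filter on dim spots, arrays fitted or weighted, the prior and the threshold; leaving out doubted arrays and subtracting the floor were added after the data were seen. Figures used matplotlib 3.10.9.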

Additional observations from a re-analysis of the deposited data

Results flagged for a closer look

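In each group of 7 arrays, for 32 named spots (log2 ppm) and for the summed share of the 50 spots, the distance between the array at either end and the next array was divided by the whole range of the 7 values. Of 132 such groups 7 had a ratio above Dixon's 95% limit for 7 values, where chance gives about 1 in 20, or 6.6. RG244 was lowest on ALCAR suspended H, at 8976 ppm, while the other 6 ALCAR suspended arrays lay between 24475 and 42943 ppm (ratio 0.641). R372 was highest on control 9, at 46715 ppm, while the other 6 control arrays lay between 17371 and 22880.2 ppm (ratio 0.722). R405 was lowest on ALCAR control O, at 13501 ppm, while the other 6 ALCAR control arrays lay between 19395 and 22412 ppm (ratio 0.715). RG019 was lowest on ALCAR control O, at 11082 ppm, while the other 6 ALCAR control arrays lay between 20931 and 29321 ppm (ratio 0.654). RG404 was highest on ALCAR suspended I, at 32830.2 ppm, while the other 6 ALCAR suspended arrays lay between 4029 and 9053 ppm (ratio 0.614). RG023 was lowest on ALCAR control O, at 3208 ppm, while the other 6 ALCAR control arrays lay between 5747 and 8481 ppm (ratio 0.600). R681 was lowest on ALCAR suspended H, at 1503 ppm, while the other 6 ALCAR suspended arrays lay between 2586 and 3812 ppm (ratio 0.583). ALCAR control O gave 3 of the 7 results and ALCAR suspended H gave 2, and these are the arrays with the highest floors; the part of the floor in these values was not tested.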

How the results depend on the processing

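No called spot reversed its sign under any alternative run, and R150 and RG148 passed in every comparison in which they were called, except for R150 with the replicate block. For suspended minus control the 8 spots became 4 without normalisation, 3 with centring on the array median, 5 when its 14 arrays had a fit of their own, 14 with array quality weights, 13 without an intensity trend, 14 at an adjusted p under 0.10 and 14 without the 5 arrays of lowest weight. For ALCAR suspended minus ALCAR control the 7 became 4 without normalisation, 4 with centring on bright spots, 2 with centring on the array median and 11 with weights. For ALCAR suspended minus control the 13 became 4, 4 and 3 under those scalings, 22 with weights and 8 without control 2 and 4. For ALCAR suspended minus suspended the 0 became 1 without the trend (R147) and 1 without suspended 4 and 5 (RG404), and for ALCAR control minus control 1 with weights (R681) and 2 without the 5 arrays of lowest weight (R681 and RG411); the interaction stayed at 0 in all 13 other settings. Leaving out 1 array at a time gave 6 to 11 spots for suspended minus control, 7 to 9 for ALCAR suspended minus ALCAR control, 11 to 17 for ALCAR suspended minus control and 0 for the other 3. These counts, and those under other settings given further up, are of the 50 spots alone. Counts over all spots under the same settings are not set beside them, so a gain or loss may be that of the whole array. RG375 in suspended minus control was lost without any 1 of 8 arrays (control 2, control 4, control 6, suspended 1, suspended 2, suspended 3, suspended 4, suspended 7; differences 0.49 to 0.59), and R083 without any 1 of 9 (control 2, control 4, control 5, control 6, suspended 3, suspended 4, suspended 5, suspended 6, suspended 7; −0.97 to −0.62). In ALCAR suspended minus control RG515 was lost without any 1 of 7 arrays (control 2, control 4, ALCAR suspended D, ALCAR suspended E, ALCAR suspended H, ALCAR suspended L, ALCAR suspended R; 0.49 to 0.71) and RG023 without any 1 of 4 (control 7, ALCAR suspended H, ALCAR suspended L, ALCAR suspended R; −0.81 to −0.62). With the shared rat number as a replicate block, over the 10 arrays that share one, 1 of the 8 spots passed (RG148), and 2 without the block on the same arrays; no rat number correlated best with its own partner. With each array's lowest value subtracted the summed share was 52.4% for control, 54.0% for suspended, 58.9% for ALCAR control and 56.6% for ALCAR suspended muscle. Leaving out 1 array moved the shares as deposited to 35.9 to 38.7%, 39.3 to 42.3%, 42.5 to 47.2% and 38.7 to 42.8%, and left 49 or all 50 spots in the list. Unknown background treatment, the rank scale at the top of the array and 7 arrays a group limit all values.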

Other observations

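Some of the 50 spots rose and fell together from array to array within groups. Group means were removed from the normalised log2 values, and each of the 1225 pairs of spots was correlated over the 28 arrays, with p-values from 100000 permutations within groups and Benjamini-Hochberg adjustment over the 1225 pairs. In all 147 pairs had an adjusted p of r under 0.05, 93 positive and 54 negative, and the median r of all pairs was 0.03. Pairs were picked by r in these arrays. RG147 correlated with RG411 (r = 0.93 and rho = 0.87) and with RG138 (r = 0.92 and rho = 0.98), and these 3 spots were high on the same arrays. RG469 and R455 had r = 0.86 and rho = 0.85, R366 and R367 r = 0.85 and rho = 0.86, RG139 and RG056 r = 0.84 and rho = 0.82, and R366 and RG131 r = 0.83 and rho = 0.74. RG404 ran against RG382 (r = −0.87 and rho = −0.83) and against R455 (r = −0.85 and rho = −0.70). The permutation p of r was 1e-05, the smallest that 100000 permutations give, for 6 of these 8 pairs (adjusted p 0.00136). It was 4e-05 for R366 and RG131 (adjusted p 0.00245) and 0.000130 for RG404 and R455 (adjusted p 0.00498). The permutation p of rho ran from 1e-05 to 0.000220 over the 8 pairs (adjusted p 0.00136 to 0.00793). Without the 2 arrays farthest from the median of the first spot named in the calculation, r was 0.87, 0.90, 0.76, 0.81, 0.77, 0.70, −0.80 and −0.73 in the order given. All values of an array share its scaling, so the spots are not independent of each other.

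Of the 7 pairs of spots with adjoining numbers, R366 and R367 was the 1 pair with an adjusted p of r under 0.05. R281 and R282 had r = 0.52 and rho = 0.54 (adjusted p of r 0.0561), RG329 and RG330 r = 0.45 and rho = 0.52 (0.114), and RG138 and RG139 r = 0.34 and rho = 0.30 (0.262). The other 3 pairs had r between −0.01 and 0.07.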
